A study of Mus musculus with 10 samples.

Results

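The genes described here act in dopamine signalling and in the neurons of the striatum that receive it. They were chosen by name, as 48 genes in 6 roles, and single-symbol probes of 32 of them were on the array, 42 probes in all, out of 9930 genes with such a probe. The 16 genes without a probe of that symbol were Th, Slc6a3, Dbh, Pitx3, Lmx1b, Drd1, Drd3, Drd5, Adora2a, Cnr1, Gpr6, Gnal, Gng7, Pdyn, Foxp2 and Isl1, and they were not analysed here. All 32 genes kept at least 1 probe with values on both arrays of at least 4 mice, and 38 of the 42 probes did.

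Brain RNA from 5 male mice of the Cin85-/- genotype, 15 weeks old, was hybridised against 1 pool of brain RNA from male wt mice of the same age. Each mouse had 2 arrays, with the mutant RNA in Cy5 on the first and in Cy3 on the second, which gives 10 arrays, called Cy5 arrays and Cy3 arrays after the dye of the mutant RNA. Cin85 is the adaptor protein encoded by Sh3kbp1. The pool held 5 mice by the series design and 6 by the labelling protocol, and the pool counts as a single control sample, so the spread between wildtype mice was not measured. How the mutant allele was made was not given in the sources used here, and the source name of the mutant RNA carries an unexplained abbreviation, Kdn, beside titles that name brain. The values are ratios, which hold no expression level, so the tissue label could not be checked against marker levels. Brain was extracted as a whole organ, so fewer cells of a type and less RNA per cell cannot be told apart.

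Dopamine is made from tyrosine in midbrain neurons by tyrosine hydroxylase, which needs tetrahydrobiopterin as a cofactor, and by aromatic amino acid decarboxylase. It is loaded into vesicles, released mainly in the striatum, taken up again and broken down by monoamine oxidases. Striatal projection neurons read it through receptors that raise or lower cyclic AMP, a signal that phosphodiesterases, regulators of G proteins and phosphatase inhibitors then shape, and they release enkephalin or substance P as cotransmitters.

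No source used here states which RNA is the numerator of the deposited ratios, or whether the sign of the Cy3 arrays was turned before deposit. Positive and negative below are therefore signs on the deposited scale and do not say whether the mutant or the pool was higher. The pair mean is the mean of the log2 ratios of both arrays of a mouse as deposited. In the other reading of the swap, Cy3 arrays change sign before that mean is taken. The base of the logarithm was read from the size of the values. Across all probes, arrays of the same dye orientation had a median rank correlation of 0.28, and arrays of opposite orientation had one of -0.30, over 20 and 25 pairs of arrays. What the arrays shared most thus turned sign with the dye. Each array also held a single extreme value, over 16 in size, at 65 to 264 probes, and these were positive on all arrays with the mutant in Cy5 and negative on all arrays with it in Cy3. The array of mouse 3 with the mutant in Cy3 stood apart, with 3539 of 20355 probes missing against 931 to 1582 on the others and an interquartile range of 1.43 against 0.45 to 0.99. The one tested probe of Sh3kbp1 itself gave 0.0082 ± 0.14 (SD, n = 5 mice) with a limma adjusted p of 0.989, and since the part of the transcript it covers is not given, it does not check the genotype.

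Read as deposited, no dopamine or striatal gene differed from the pool by the test across all genes. The pair mean measures a difference from the pool only if the sign of the Cy3 arrays was turned before deposit. If it was not, such a difference cancels in the pair mean and appears in the other reading, described further below. With limma on the 5 pair means, 0 of 32 genes and 0 of 38 probes passed an adjusted p of 0.05, where 0% of all 8711 genes and 0% of all 16939 probes did, and the lowest adjusted p among the 32 genes was 0.918. The gene means ran from -0.46 for Pts to 0.91 for Gch1, with 15 positive and 17 negative and a median of -0.017, beside a median of -0.0035 over all genes tested. The median SD between mice was 0.30 for these genes and 0.32 for all genes. At an unadjusted p under 0.05 there were 5 of the 32, namely Gch1, Pts, Adcy5, Rgs9 and Ncs1, where 3.46% of all genes reached that level. The same 5 were those with the same sign in all 5 mice, of 28 with a value in each, a property of 6.75% of all such genes. None of the 5 is a change by the adjusted test. Leaving out a mouse lowered the count at an unadjusted p under 0.05. It was 3 without mouse 1 (Pts, Rgs9 and Rasd2), where 3.79% of all genes reached that level, and 2 without mouse 2 (Gch1 and Rasd2), where 3.21% did. Without mouse 3 it was 3 (Pts, Adcy5 and Ncs1), where 3.9% of all genes did. It was 1 without mouse 4 (Gch1) and 1 without mouse 5 (Pts), where 3.04% and 2.82% of all genes did. As deposited, the 95% interval of the mean lay within 1.5-fold of no difference for 20 of 32 genes (62.5%, against 65.5% of all). It lay within 2-fold for 29 (90.6%, against 88.5%). Under the other reading it lay within 2-fold for 25 of the 32, and for 7257 of all 8711 genes.

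**Figure D1:**
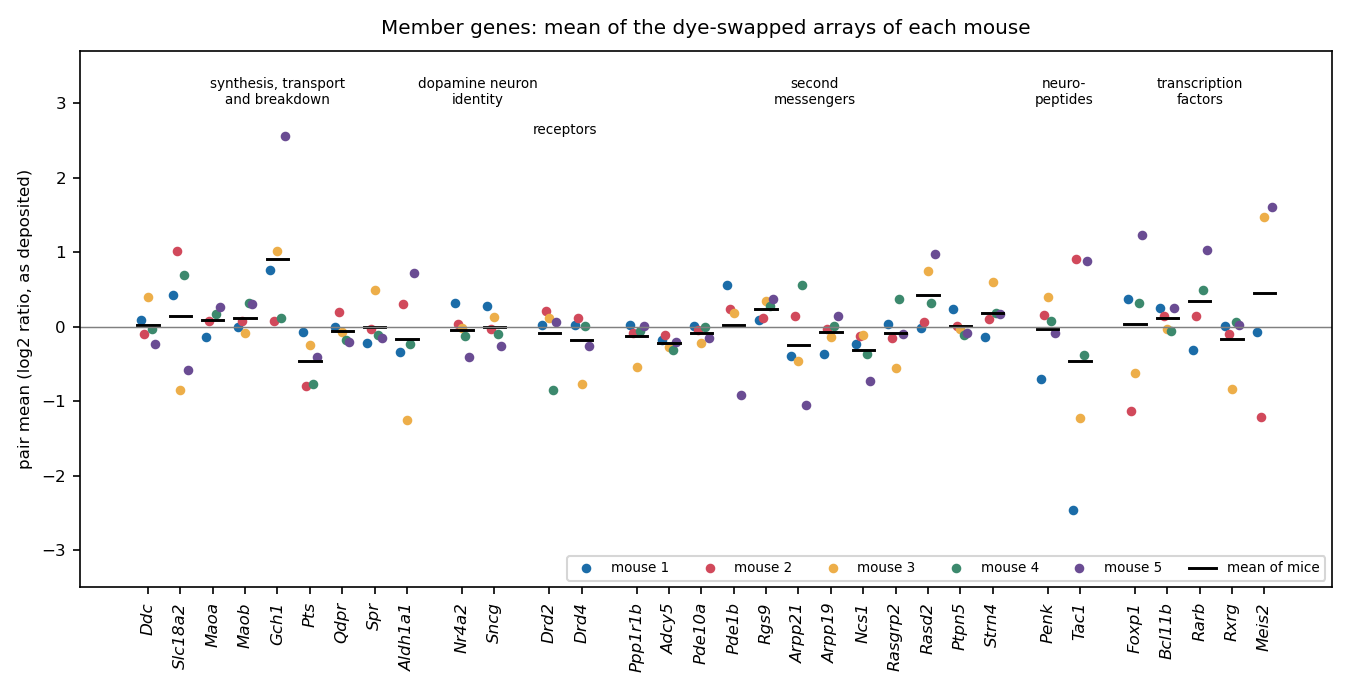
Pair means of the 32 genes in the 5 mice, as log2 ratios on the deposited scale, grouped by role along the horizontal axis. Coloured points are mice and black bars are means over mice; Gch1, Pts, Adcy5, Rgs9 and Ncs1 are the genes whose points all lie on one side of 0.

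Among 9 measured genes of dopamine synthesis, transport and breakdown, 5 means were positive and 4 negative, and the median was 0.025. The 4 enzymes of tetrahydrobiopterin did not move together. Gch1, the GTP cyclohydrolase that starts the pathway and sets its rate, had pair means of 0.77, 0.08, 1.01, 0.12 and 2.56 in mice 1 to 5. All 5 were positive, but mouse 5 was far above the rest through its array with the mutant in Cy3, at 5.17 against -0.06 on its other array. The mean was 0.91 ± 1.01 (SD, n = 5) with a limma adjusted p of 0.918, and it was 0.49 without mouse 5. Pts, the synthase of the next step, had -0.07, -0.79, -0.24, -0.77 and -0.41. It was negative in every mouse, with a mean of -0.46 ± 0.32 (SD, n = 5) and a limma adjusted p of 0.918, and leaving out each mouse in turn gave -0.55 to -0.37. Means of Pts had the same sign in each orientation, -0.51 ± 0.24 (SD, n = 5 arrays) on the Cy5 arrays and -0.40 ± 0.79 on the Cy3 arrays. For Gch1 the mean of the Cy5 arrays was only 0.044 ± 0.34, so nearly all of its pair mean came from the Cy3 arrays, at 1.77 ± 2.00 (SD, n = 5 arrays each).

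Spr, sepiapterin reductase, which completes the cofactor, had -0.22, -0.028, 0.49, -0.11 and -0.15, and its mean was -0.0043 ± 0.29 (SD, n = 5). Mouse 3 alone was positive, and without it the mean was -0.13. Qdpr, which regenerates the cofactor, had a mean of -0.05 ± 0.16 (SD, n = 5) and mice on both sides of 0. Ddc, the decarboxylase that forms dopamine, had 0.093, -0.097, 0.40, -0.033 and -0.24, with a mean of 0.025 ± 0.24 (SD, n = 5). Its 95% interval, from -0.26 to 0.31, lay within 1.5-fold of no difference. Slc18a2, the vesicular monoamine transporter of neurons, had 0.42, 1.02, -0.85, 0.69 and -0.58. The mice spread over both signs, and the mean was 0.14 ± 0.81 (SD, n = 5), with an interval from -0.59 to 0.87. Maoa and Maob, the monoamine oxidases, are neighbours on the X chromosome, which also carries Sh3kbp1, with 788 protein-coding genes between Sh3kbp1 and Maoa in the RefSeq gene order of GRCm38.p6. Maoa had a mean of 0.095 ± 0.18 (SD, n = 4) and Maob one of 0.12 ± 0.18 (SD, n = 5). Aldh1a1, an aldehyde dehydrogenase found in a subset of midbrain dopamine neurons, had a mean of -0.16 ± 0.74 (SD, n = 5), and mouse 3 was lowest at -1.25; without it the mean was 0.11.

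Of the markers of dopamine neurons, 2 were measured. Nr4a2, the nuclear receptor Nurr1 that these neurons need to form and persist, had pair means of 0.32, 0.04, -0.022, -0.12 and -0.41. Sncg, gamma-synuclein, had 0.28, -0.036, 0.13, -0.099 and -0.26. Each crossed 0, with means of -0.039 ± 0.27 for Nr4a2 and 0.0014 ± 0.21 for Sncg (SD, n = 5 mice each), and both intervals lay within 1.5-fold of no difference. The pair means of each gene were highest in mouse 1 and lowest in mouse 5.

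The receptors were represented by Drd2, the receptor of enkephalin neurons that lowers cyclic AMP, and by Drd4, a relative found mainly outside the striatum. Drd2 had pair means of 0.019, 0.21, 0.11, -0.86 and 0.066 over its 3 probes. In this average mouse 4 alone was negative, and the mean of -0.089 ± 0.43 (SD, n = 5) was 0.10 without it. In mouse 1, probe 9016 was missing on the Cy3 array, so the averages of its arrays held different probes. On probes 8726 and 18824, present on both of its arrays, mouse 1 had pair means of 0.86 and -1.04. The sign of mouse 1 thus depended on which probes were averaged. In mouse 2, probe 8726 was missing on the Cy3 array. Mouse 4 was negative on each of the 3 probes, whose means over mice were -0.046 (probe 8726), 0.076 (probe 9016) and -0.39 (probe 18824), with SDs between mice of 0.71 (n = 4), 0.84 (n = 4) and 0.54 (n = 5). Mouse 4 was the lowest on probes 8726 and 9016, and mouse 1 was the lowest on probe 18824. Drd4 had 0.022, 0.11, -0.77, 0.015 and -0.26, with a mean of -0.18 ± 0.36 (SD, n = 5), which was -0.029 without mouse 3.

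Second-messenger genes were the largest role, with 12 measured, 5 positive and 7 negative, and a median of -0.077. Rgs9, whose product speeds the switching off of G proteins downstream of dopamine and opioid receptors in the striatum, had pair means of 0.091, 0.12, 0.35, 0.28 and 0.37. All 5 were positive, with a mean of 0.24 ± 0.13 (SD, n = 5), a 95% interval from 0.023 to 0.46 and a limma adjusted p of 0.918. Both of its probes gave nearly the same pair mean, 0.24 ± 0.19 on probe 4825 and 0.25 ± 0.11 on probe 11160 (SD, n = 5 mice each). Their single arrays behaved in opposite ways, as described below. The shared sign was that of the probe average: mouse 1 was -0.0605 on probe 4825, while all 5 mice were positive on probe 11160. Gnb5, which encodes the G protein beta subunit that RGS9 needs for its stability and is not one of the 48, had -0.24 ± 0.14 (SD, n = 5), negative in all 5 mice and not called, with a limma adjusted p of 0.918.

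Adcy5, the main adenylyl cyclase of striatal neurons, had -0.18, -0.11, -0.27, -0.31 and -0.21. It was negative in every mouse, and its mean of -0.21 ± 0.077 (SD, n = 5) had the smallest spread between mice of the 32 genes, with a 95% interval from -0.41 to -0.015 and a limma adjusted p of 0.918. The sign did not hold in each orientation: the mean was 0.10 ± 0.17 on the Cy5 arrays and -0.53 ± 0.15 on the Cy3 arrays (SD, n = 5 arrays each). A second Adcy5 probe, 18677, had values on 7 arrays, 2 of them extreme, and was not tested. Ncs1, a neuronal calcium sensor that binds the D2 receptor, had -0.23, -0.12, -0.11, -0.37 and -0.73. The mean was -0.31 ± 0.26 (SD, n = 5) with a limma adjusted p of 0.918, and it was -0.21 without mouse 5. Ncs1 too was positive with the mutant in Cy5, at 0.26 ± 0.34, and negative with it in Cy3, at -0.88 ± 0.56 (SD, n = 5 arrays each).

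Ppp1r1b encodes the phosphatase inhibitor DARPP-32, the phosphoprotein on which dopamine and glutamate signals meet in striatal neurons. Its pair means were 0.028, -0.081, -0.54, -0.053 and 0.011. The other mice lay close to 0 and mouse 3 lay apart, through an array value of -1.15 with the mutant in Cy3 against 0.06 on its other array. The mean was -0.13 ± 0.24 (SD, n = 5) and -0.024 without mouse 3. With the mutant in Cy5, the 5 values of Ppp1r1b lay between -0.0030 and 0.18, with a mean of 0.074 ± 0.069 (SD, n = 5 arrays).

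The phosphodiesterases of the striatum gave values around 0. Pde10a, which breaks down both cyclic nucleotides in projection neurons, had 0.01, -0.046, -0.22, -0.0063 and -0.16, with a mean of -0.084 ± 0.10 (SD, n = 5) and probe means of -0.081 and -0.088. Pde1b, the form switched on by calcium and calmodulin, had 0.57, 0.24, 0.19 and -0.92 in mice 1, 2, 3 and 5, with a mean of 0.021 ± 0.65 (SD, n = 4). Arpp21, a phosphoprotein regulated by cyclic AMP, had -0.40, 0.15, -0.46, 0.56 and -1.05. These spread over both signs, and the mean of -0.24 ± 0.62 (SD, n = 5) rested on probes of unequal spread, -0.33 ± 1.20 (n = 4) on probe 18725 and -0.085 ± 0.30 (n = 5) on probe 18868. Ptpn5, the striatum-enriched tyrosine phosphatase STEP, had 0.24, 0.0075, -0.035, -0.11 and -0.082. Its mean was 0.0042 ± 0.14 (SD, n = 5), and its other probe, 16624, had values on 7 arrays and was not tested.

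Of the other second-messenger genes, Rasd2, the small G protein Rhes, had the largest mean, 0.42 ± 0.43 (SD, n = 5), positive in 4 mice and -0.019 in mouse 1. Strn4, a striatin of the phosphatase complex that carries this family's name, had 0.18 ± 0.27 (SD, n = 5). Arpp19, which inhibits protein phosphatase 2A once phosphorylated, had -0.077 ± 0.19, and Rasgrp2, an exchange factor for Rap, had -0.077 ± 0.33 (SD, n = 5 each).

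Striatal neuropeptides are the cotransmitters by which projection neurons of the direct and indirect pathways are told apart, and both measured genes crossed 0. Penk, the enkephalin precursor of the indirect pathway, had -0.69, 0.16, 0.40, 0.072 and -0.078, with a mean of -0.03 ± 0.41 (SD, n = 5). Tac1, the substance P precursor of the direct pathway, had -2.46, 0.90, -1.23, -0.37 and 0.88 on its tested probe. The mean of -0.46 ± 1.44 (SD, n = 5) turned to 0.045 without mouse 1. The other Tac1 probe, 8950, had values on 6 arrays and was not tested.

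Among the transcription factors of striatal neurons, 4 means were positive and 1 was negative, and the median was 0.11. Bcl11b, the factor CTIP2 that projection neurons need to mature, had 0.25, 0.15, -0.031, -0.063 and 0.25. Its mean was 0.11 ± 0.15 (SD, n = 5), with 0.23 ± 0.22 on probe 1 and -0.0026 ± 0.16 on probe 6427. Foxp1 had 0.38, -1.12, -0.63, 0.31 and 1.23, and its mean was 0.034 ± 0.92 (SD, n = 5). Retinoid receptors of the striatum differed in sign, with Rarb at 0.34 ± 0.57 (SD, n = 4) and Rxrg at -0.17 ± 0.38 (SD, n = 5). Rarb had -0.31, 0.15, 0.49 and 1.03 in mice 1, 2, 4 and 5, and only mouse 1 was negative. Rxrg had 0.016, -0.10, -0.84, 0.061 and 0.021, so its mean came from mouse 3 and was -0.0016 without it. Meis2, a homeobox factor of striatal precursors, had the fewest values of a tested member probe, 8 of 10. It had -0.065, -1.21, 1.48 and 1.60 in mice 1, 2, 3 and 5 and a mean of 0.45 ± 1.34 (SD, n = 4), so mice lay on both sides of 0. Its other probe, 18059, had values on 7 arrays and was not tested.

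The medians of the roles lay on both sides of 0. The median over genes was 0.025 for synthesis, transport and breakdown, -0.019 for dopamine neuron identity, -0.13 for receptors, -0.077 for second messengers, -0.24 for neuropeptides and 0.11 for transcription factors. Role medians in single mice ran from -0.15 to 0.076 for synthesis, from -0.13 to 0.017 for second messengers, and from -0.33 to 1.03 for transcription factors. The roles with 2 measured genes ranged more widely, from -0.34 to 0.30 for neuron identity, -0.42 to 0.16 for receptors and -1.58 to 0.53 for neuropeptides. No role median had the same sign in all 5 mice. No test was made of these medians.

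**Figure D2:**
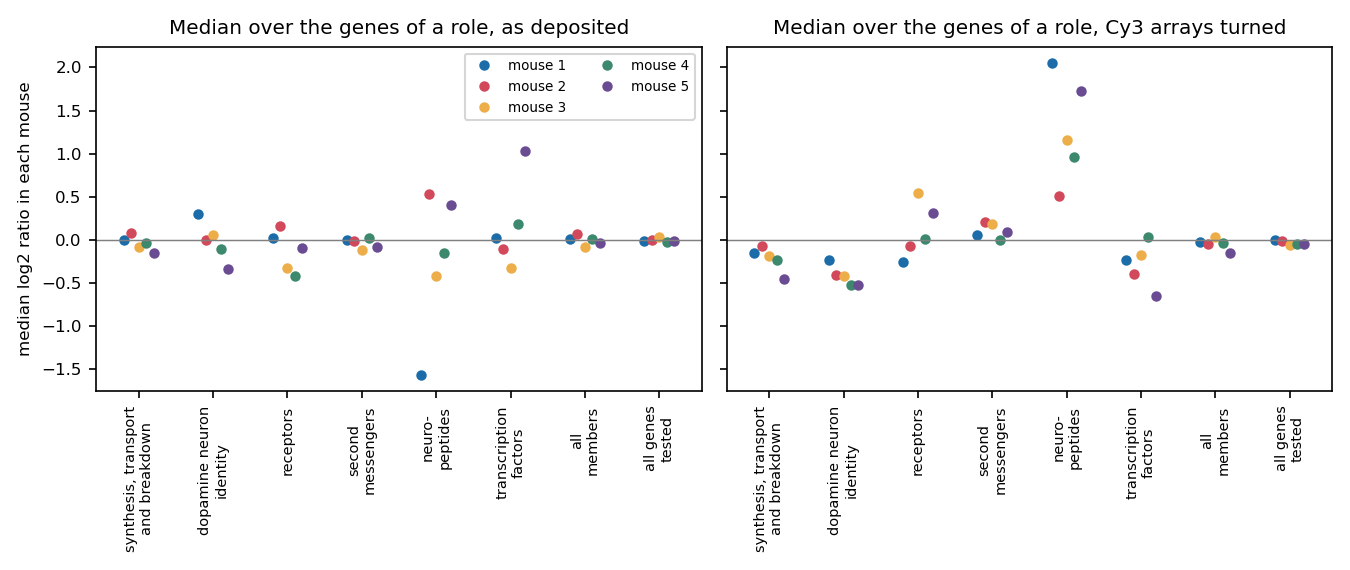
Median log2 ratio over the genes of each role in each of the 5 mice, as deposited on the left and with the Cy3 arrays turned on the right; points are mice. On the left the points of every role lie on both sides of 0, and on the right those of synthesis (-0.46 to -0.076), neuron identity (-0.53 to -0.24) and neuropeptides (0.50 to 2.06) do not. Those of all genes tested lie on one side on the right too, from -0.063 to -0.0035. Neuron identity and neuropeptides hold 2 genes each.

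For some of these genes the arrays separated by dye orientation. Of 31 probes with values on all 10 arrays, 11 had no overlap between the 5 Cy5 arrays and the 5 Cy3 arrays, where 15.1% of all 13572 such probes had none. These were the probes of Nr4a2, Sncg, Adcy5, Ncs1, Penk, Tac1 and Ptpn5, 1 probe each of Pde10a and Arpp21, and both probes of Rgs9. Sncg gave -0.28 ± 0.23 on the Cy5 arrays and 0.28 ± 0.19 on the Cy3 arrays (SD, n = 5 each). Tac1 had the largest difference of means among the 11, with 0.49, 1.55, 0.98, 0.74 and 3.19 on the Cy5 arrays of mice 1 to 5 and -5.40, 0.26, -3.43, -1.49 and -1.43 on the Cy3 arrays. Penk had 0.48, 0.51, 0.50, 0.87 and 1.06 against -1.87, -0.20, 0.29, -0.73 and -1.21. On the tested probes of both peptide genes every Cy5 array was positive. The Cy3 arrays were negative in 4 mice and 0.26 and 0.29 in the other, mouse 2 for Tac1 and mouse 3 for Penk. On the untested Tac1 probe 8950, the Cy5 arrays gave 0.28 in mouse 1 and -0.35 in mouse 5. Its Cy3 arrays gave 1.30, -1.99, -1.11 and -2.26 in mice 1, 2, 4 and 5. Nr4a2 ran the opposite way, at -0.61 ± 0.50 on the Cy5 arrays and 0.53 ± 0.13 on the Cy3 arrays (SD, n = 5 each).

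In the other reading of the swap, the value of a gene is the mean of its arrays after the sign of the Cy3 arrays is turned. Under that reading 0 of 32 genes passed an adjusted p of 0.05 by limma, as 0% of all genes did, while 11 of 32 had an unadjusted p under 0.05, where 26.1% of all genes had one, and 12 of 28 had the same sign in every mouse, where 28.3% of all genes did. The means were then 1.84 ± 0.94 for Tac1, 0.71 ± 0.47 for Penk, 0.57 ± 0.38 for Ncs1, 0.47 ± 0.22 for Strn4, 0.31 ± 0.14 for Adcy5, -0.28 ± 0.057 for Sncg and -0.57 ± 0.25 for Nr4a2 (SD, n = 5 each). The lowest limma adjusted p among these genes was 0.0972. The sign differed between the readings for 21 of the 32 genes, among them Gch1 (-0.86), Adcy5 and Ncs1, while Pts (-0.053) and Rgs9 (0.11) kept their sign with smaller values. When all 10 arrays were fitted with a dye term and a random block for the mouse, 6 of the 32 genes passed under this reading (Nr4a2, Adcy5, Ncs1, Strn4, Penk and Tac1), where 10.3% of all genes did, and 9 of 38 probes did, where 12.1% of all probes did. The within-mouse correlation in that fit was -0.020 over probes, so it took the 10 arrays as about 10 replicates and its calls overstate what 5 mice give.

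**Figure D3:**
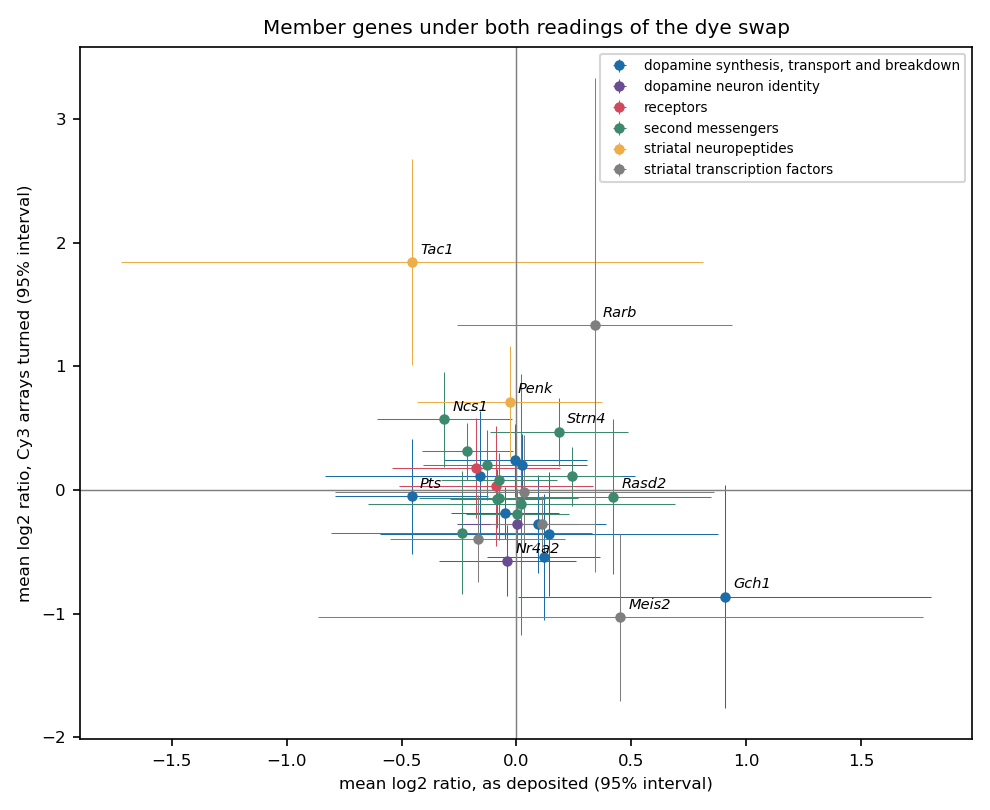
Mean log2 ratio of each of the 32 genes as deposited (horizontal axis) and with the Cy3 arrays turned (vertical axis); bars are 95% intervals of limma over 4 or 5 mice and colours are roles. Tac1 lies farthest from 0 on the vertical axis, at 1.84, and Gch1 on the horizontal axis, at 0.91.

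Tested probes of the same gene differed in the direction of this orientation difference for Rgs9, Pde10a and Drd2, and shared it for Bcl11b and Arpp21. Meis2 had 1 tested probe, 20314, with means of -0.58 on the Cy5 arrays and 1.48 on the Cy3 arrays. Its untested probe 18059 ran the opposite way, at 2.11 and -1.88. By the means of their few arrays, the untested probes of Adcy5, Ptpn5 and Tac1 ran the same way as the tested ones. For Adcy5 probe 18677 the Cy3 mean held the 2 extreme values, -16.7 and -17.4. Its other Cy3 values were -1.685, 1.427 and -0.085, beside -2.036 and 0.446 on the Cy5 arrays, so its direction is not established. Tac1 probe 8950 ran the opposite way in mouse 1, at 0.28 with Cy5 and 1.30 with Cy3. On Rgs9 probe 4825 the arrays of mice 1 to 5 gave 0.30, 1.05, 0.85, 0.85 and 1.46 on the Cy5 arrays and -0.42, -0.71, -0.17, -0.24 and -0.58 on the Cy3 arrays. On probe 11160 they gave -0.04, -0.12, -0.28, -0.18 and -0.37 with Cy5 and 0.52, 0.26, 1.01, 0.70 and 0.97 with Cy3. Each probe split the orientations without overlap and in the opposite order. Under the other reading Rgs9 was therefore 0.66 ± 0.28 on one probe and -0.44 ± 0.21 on the other (SD, n = 5 each), and as a gene it averaged 0.11. Pde10a divided likewise, with 0.22 ± 0.33 on probe 10580 and -0.36 ± 0.12 on probe 18128 (SD, n = 5 each). For Drd2 the values were -0.49, 0.34 and 0.35, with SDs of 0.56 to 0.96. Both probes of Bcl11b had the same sign, -0.19 ± 0.19 and -0.35 ± 0.25, as did those of Arpp21, -0.40 ± 1.06 (n = 4) and -0.39 ± 0.19 (SD, n = 5 otherwise). The transcript regions that the probes cover were not given in the sources used here.

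**Figure D4:**
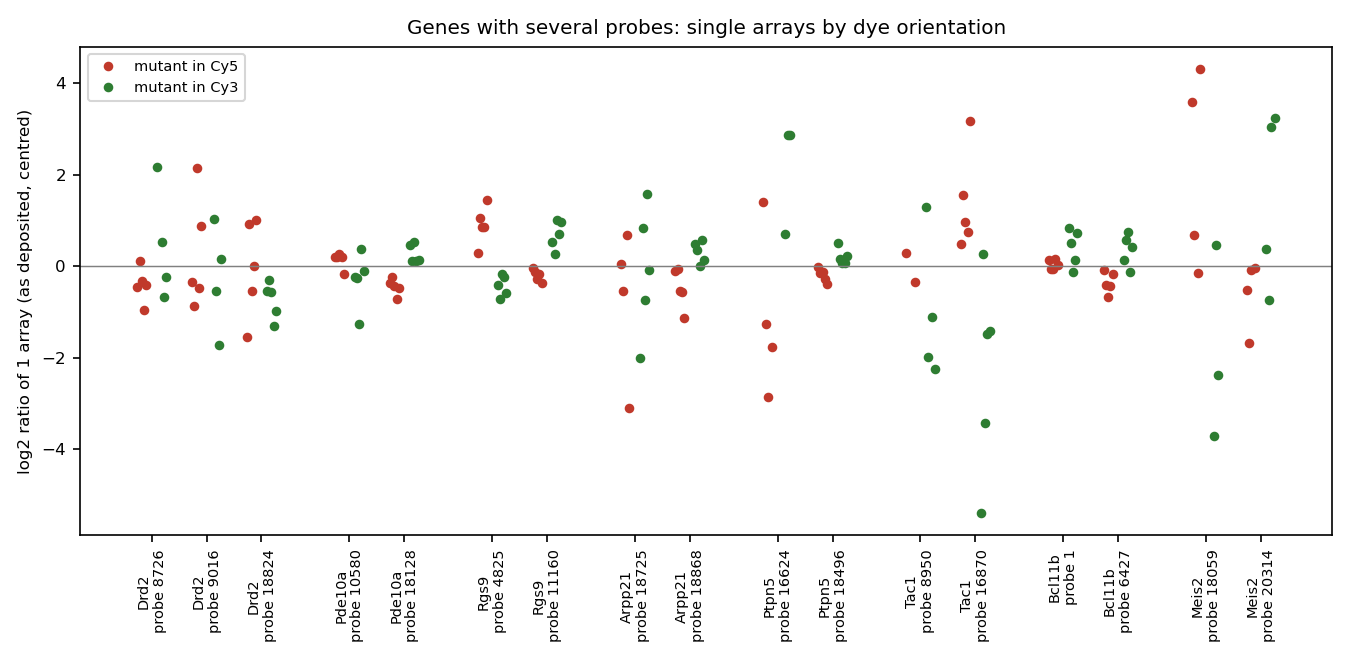
Log2 ratios of single arrays for 17 probes of 8 genes with several probes, red for Cy5 arrays and green for Cy3 arrays, with 3 untested probes among them; Adcy5, with extreme values off this scale, is left out. The colours separate on both Rgs9 probes, in opposite order.

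Other genes of the pathway, listed apart from the 48, gave no call either. As deposited, 0 of 6 further dopamine genes reached an unadjusted p under 0.05 by limma, where 3.46% of all genes did; 3 were positive and 3 negative, and their median was -0.0016. Under the other reading 4 of the 6 reached it, where 26.1% of all genes did, and the median was -0.26. As deposited, Aldh2, a mitochondrial aldehyde dehydrogenase, had 0.64 ± 0.70 and Park7, the protein DJ-1, 0.10 ± 0.14 (SD, n = 5 each). As deposited, the 34 further striatal signalling genes had 0 calls and 3 genes at an unadjusted p under 0.05, where 3.46% of all genes had one, and 16 were positive and 18 negative around a median of -0.0089. Under the other reading 11 of the 34 had such a p, where 26.1% of all genes did, and the median was 0.0073. Ppp3r1, the regulatory subunit of calcineurin, which removes the phosphate from DARPP-32, was at -0.40 ± 0.35 (SD, n = 5) as deposited. Marker lists of other cell types had deposited-scale medians of -0.027 for 7 astrocyte genes, 0.017 for 5 oligodendrocyte genes and -0.13 for 5 microglia genes. They were 0.0099 for 6 neuron genes, -0.32 for 3 choroid plexus genes and 0.22 for 7 kidney tubule genes, with 0 members called. Under the other reading the medians were 0.037, -0.18, -0.090, -0.058, -0.063 and 0.035 in the same order. Read as deposited, the choroid plexus median was negative in every mouse, from -0.51 to -0.17. The kidney tubule median was then positive in every mouse, from 0.0025 to 0.31. The part of these lists in the values above was not tested.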

How the data were processed

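The deposited table holds the authors' log2 ratios of the 2 channels for 20355 probes on 10 two-colour arrays. The scanner, background correction and normalization were not given in the sources used here, and base 2 was read from the size of the values. No channel intensity was used, so how far spots stood above background could not be told; precision is limited by the number of arrays. RNA was reverse transcribed and labelled indirectly with Cy3 or Cy5, per the labels' protocols.

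Gene names came from GEO's annotation of the platform, possibly outdated: 14030 probes carried 1 gene symbol, 5 several and 6320 none. All 32 measured members kept their symbol through their Entrez identifier in RefSeq of GRCm38.p6. No sequence is printed, since no probe sequence was used here.

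Columns were centred on their median. Probes needed both arrays of at least 4 mice; those of a gene were averaged on each array, so a missing value changes which probes an average holds. Both arrays of a mouse were averaged, and limma 3.58.1 (lmFit, eBayes; R 4.3.3) tested the 5 resulting pair means for a difference from 0, adjusted by Benjamini-Hochberg over all 16939 probes or 8711 genes. Nothing says more of the mice than their identifiers; the mouse is the replicate. The fit was run on simulated pair means with known changes and independent noise. These held no dye orientation and no shared pool, so they do not bear on the reading of the swap. Genes given in full were 11 fixed names where measured, in each role the 2 with the smallest p and the 2 nearest to 0, and those with several probes; of further lists, 2 with the smallest p. Ncs1 and Rxrg were added after their values were seen. The members, lists and rules were chosen with earlier results of these data known. The alternatives are in the closing section.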

Additional observations from a re-analysis of the deposited data

Results flagged for a closer look

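Among 39 sets of 4 or 5 mouse values (the 32 genes and 7 medians), 4 held a mouse far from the others by Dixon's criterion at 95%. Chance gives about 1 in 20 such sets. Spr was 0.49 in mouse 3, while the other mice were negative. Drd2 was -0.86 in mouse 4 as the average of its probes, with the other mice positive in that average. For mouse 1 that sign came from arrays averaged over different probes, since probe 9016 was missing on its Cy3 array. On probe 18824, the only Drd2 probe with values on all 10 arrays, mouse 4 did not stand apart. It was -0.655 there, with mouse 1 at -1.04, mouse 3 at -0.558 and mice 2 and 5 positive. Ppp1r1b was -0.54 in mouse 3, and Rxrg was -0.84 in mouse 3. The mouse 3 array with the mutant in Cy3 had the most missing values and the widest spread, and its part in these values was not tested.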

How the results depend on the processing

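As deposited, with all 10 arrays in the fit, arrays scaled to one another, no centring, 1 dye orientation alone, extreme ratios set to missing, a stricter or looser filter, or leaving out each mouse, 0 member probes and 0 member genes were called; taking only the probe with most values gave 0 genes too. With the other reading of the swap, calls were absent for pair means without scaling; there were 257 of all probes and 0 member probes after scaling between arrays, and 2054 of all probes, 9 member probes and 6 member genes with all 10 arrays, a dye term and a random block for the mouse. Role medians moved by more than the spread between mice only under the other reading and within 1 dye orientation. Under the other reading (alone, with scaling, and with all 10 arrays) they were -0.186, -0.187 and -0.186 for synthesis, -0.426, -0.397 and -0.426 for neuron identity, 0.0121, 0.0514 and 0.0121 for second messengers and 1.28, 1.23 and 1.28 for neuropeptides. With the mutant in Cy5 alone and in Cy3 alone they were -0.216 and 0.136, -0.445 and 0.407, 0.0382 and -0.0133, and 1.04 and -1.32 in the same order. Within 1 orientation a probe needed values in at least 4 mice on that orientation alone, so some probes not tested in the main fit entered. With Cy3 alone Adcy5 was -3.71, against -0.53 on its tested probe, and Tac1 was -1.90, against -2.30. With Cy5 alone Ptpn5 was -0.58, against -0.19. Gene means changed sign for 21 of 32 genes under the other reading, for 15 with Cy5 alone and 7 with Cy3 alone, and for 3 to 7 when a mouse was left out. No paired analysis was possible because the pool is the only control.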
